A study of Saccharomyces cerevisiae with 8 samples.

Results

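IMD2 (YHR216W), IMD3 (YLR432W), IMD4 (YML056C) and GUA1 (YMR217W) are the genes of budding yeast, Saccharomyces cerevisiae, for the steps from IMP to GMP. They are 4 of the 6534 genes in the count table, and all 4 were among the 5954 tested. The members were chosen from their annotated place in guanine nucleotide synthesis and from an earlier look at these libraries, in which IMD2 stood out as lower in wild-type cells given Calcofluor white. The values of that comparison, and of the difference between the genotypes in it, are therefore given as descriptions with no test.

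The libraries were made from polyadenylated RNA of exponentially growing cultures kept for 5 hours in chemically defined medium. There were 4 groups of 2 libraries: the mub1 deletion with 20 µg/ml Calcofluor white (CFW), the mub1 deletion without CFW, wild type with 20 µg/ml CFW and wild type without CFW. Both genotypes are given as strain BMA41, and the deletion strain is described as derived from it. The libraries of the 2 genotypes nonetheless differed at several marker genes, as given below. Mub1 is a partner of the ubiquitin ligase Ubr2, which with Rad6 marks the proteasome gene activator Rpn4 for breakdown, and CFW is a dye that binds chitin and disturbs the cell wall. Whether the replicates came from separate cultures is not stated in the labels. P-values here measure only the spread between these libraries, which may be technical.

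IMP, the first complete purine nucleotide, is the branch point between the adenine and guanine nucleotides. IMP dehydrogenase, the product of IMD2, IMD3 and IMD4, turns IMP into XMP in the step that limits guanine nucleotide supply, and GMP synthase, the product of GUA1, turns XMP into GMP. IMD2 is known for its strong induction when guanine nucleotides run short, for example under mycophenolic acid. With ample GTP, transcription begins at upstream sites and the short RNAs are ended by the Nrd1-Nab3-Sen1 pathway, and with little GTP it begins further downstream and makes the mRNA.

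In build R64, IMD2 lies on the plus strand of chromosome VIII at 554396 to 555967 and IMD3 on the plus strand of chromosome XII at 1002557 to 1004128, each as 1 exon of 1572 bases. IMD4 lies on the minus strand of chromosome XIII at 162194 to 164176. Its 2 exons hold 1575 bases, and its intron of 408 bases spans 163309 to 163716. GUA1 lies on the plus strand of the same chromosome at 701790 to 703367, with 1 exon of 1578 bases. The exons given by the annotation are the coding sequences and hold no UTR.

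The windows from 320 to 121 bases before the start codons, from the RefSeq genome of build R64, are shown because transcription of IMD2 is known to be set by start sites in its upstream region. Capitals mark TATAAA, the motif TGACTC and the longest run that the IMD2 and IMD3 windows share. The windows are chrVIII:554076-554275 (plus strand), chrXII:1002237-1002436 (plus strand), chrXIII:164297-164496 (minus strand) and chrXIII:701470-701669 (plus strand).
IMD2: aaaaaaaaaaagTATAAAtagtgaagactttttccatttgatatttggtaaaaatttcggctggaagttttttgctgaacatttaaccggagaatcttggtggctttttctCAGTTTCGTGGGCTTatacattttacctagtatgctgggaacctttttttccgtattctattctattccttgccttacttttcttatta
IMD3: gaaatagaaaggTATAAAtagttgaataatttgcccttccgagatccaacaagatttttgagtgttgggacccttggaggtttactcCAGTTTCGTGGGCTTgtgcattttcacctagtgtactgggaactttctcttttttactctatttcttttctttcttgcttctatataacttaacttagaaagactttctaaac
IMD4: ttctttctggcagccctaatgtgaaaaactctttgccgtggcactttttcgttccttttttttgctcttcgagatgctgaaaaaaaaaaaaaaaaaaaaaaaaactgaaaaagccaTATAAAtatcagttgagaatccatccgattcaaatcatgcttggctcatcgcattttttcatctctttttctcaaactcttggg
GUA1: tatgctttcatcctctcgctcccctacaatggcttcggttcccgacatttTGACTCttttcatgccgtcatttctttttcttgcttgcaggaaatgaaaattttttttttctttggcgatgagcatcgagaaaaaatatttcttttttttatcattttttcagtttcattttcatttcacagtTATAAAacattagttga

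TATAAA, the letters of a common TATA box, starts 308 bases before the start codon in both IMD2 and IMD3. In IMD4 it starts 204 bases and in GUA1 137 bases before the start codon. On both strands together, 31.7% of the same windows of 6001 genes hold TATAAA. IMD2 and IMD3 also share the run CAGTTTCGTGGGCTT of 15 bases, which starts 209 bases before the start codon of IMD2 and 233 bases before that of IMD3. TGACTC, the letters bound by Gcn4 and Bas1, was found on either strand in the GUA1 window alone among the 4, 270 bases before the start codon, and 6.03% of the windows hold it. TCTT, the DNA form of the Nab3 motif, occurs in the direction of the gene 2 times in IMD2, 4 times in IMD3, 5 times in IMD4 and 5 times in GUA1, and 78.7% of windows hold it. GTAA, a form of the Nrd1 motif, was found in the IMD2 window alone among the 4, 273 bases before the start codon, and 61.5% of windows hold it. GTAG, the other form, was in none of the 4 windows and in 40.4% of all. No motif overlaps another among those marked in capitals.

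The IMD genes are copies of one another, which bears on how reads can be told apart. Over the coding sequence IMD2 and IMD3 are 88.9% identical, with 174 differences and no identical run longer than 94 bases. IMD2 and IMD4 are 79.3% identical, with a longest run of 35 bases, and IMD3 and IMD4 are 82.5% identical, with a longest run of 139 bases. The closest relative of IMD2 in the genome is a stretch of 1576 bases on chromosome I, at 227742 to 229317, that is 96.6% identical to it over the aligned bases, with 54 differences, 4 gap bases and a longest run of 147 bases. The annotation used gives no gene there, and IMD1 (YAR073W) is not analysed here.

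Bases 741 to 830 of the IMD2 coding sequence are shown beside the same stretch of IMD3, of IMD4 (bases 744 to 833) and of the chromosome I copy, to show how far reads could be told apart. Capitals mark bases that differ from IMD2, and the sequences are from the RefSeq genome of build R64.
IMD2: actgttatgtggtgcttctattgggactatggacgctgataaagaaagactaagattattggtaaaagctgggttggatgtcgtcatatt
IMD3: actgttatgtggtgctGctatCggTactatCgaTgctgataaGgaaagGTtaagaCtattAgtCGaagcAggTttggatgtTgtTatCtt
IMD4: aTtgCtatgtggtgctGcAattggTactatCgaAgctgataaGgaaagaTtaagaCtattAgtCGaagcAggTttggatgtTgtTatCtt
copy on chromosome I: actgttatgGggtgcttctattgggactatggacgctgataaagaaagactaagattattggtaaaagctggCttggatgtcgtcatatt

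In these 90 bases IMD3 has 17 differences from IMD2, IMD4 has 18 and the chromosome I copy has 2. Of all windows of 50 coding bases, 33.7% in IMD2, 16.6% in IMD3, 7.01% in IMD4 and 0% in GUA1 had a second exact match in the genome. At 100 bases the shares were 9.30%, 2.72%, 2.71% and 0% in the same order, and at 150 bases, the read length, they were 0% in all 4 genes. A full-length read without errors that lies inside the coding sequence therefore has 1 exact place for each of these genes. How reads with several alignments were counted is not given in the sources used here, and the IMD values remain uncertain to that extent.

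Library totals ran from 24147195 to 31677985 counts, and the members held 1622 to 15722 counts in a library. MUB1, the deleted gene, had 0 or 1 count in the 4 libraries labelled mub1 and 1042 to 1226 counts in those labelled wild type. The same libraries differed at strain markers: LEU2 had 4933 to 7122 counts in the mub1 libraries and 0 to 2 in wild type, URA3 had 5950 to 6648 and 0 to 1, MET17 had 2621 to 4538 and 0 to 1, and TRP1 had 0 counts in every mub1 library and 909 to 989 in wild type. A difference between the genotypes therefore cannot be told apart from an effect of these markers. Nor can it be told apart from any wider difference in strain background between these libraries, which was not tested. The 2 wild-type libraries with CFW also differed more from each other than other pairs: the median over genes of the chi-square between replicates, divided by its expectation under counting error, was 17.1 there, against 5.26 to 7.37 in the other 3 groups. Each culture was sequenced as a whole, so fewer cells that express a gene and less RNA in every cell cannot be told apart.

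IMD2 was the member whose level varied most, and it was low in 1 group. It had 397 and 464 CPM (counts-per-million units, scaled by TMM) in mub1 cells with CFW, and 269 and 408 CPM in mub1 cells without CFW. Wild-type cells with CFW had 120 and 64.3 CPM, and wild-type cells without CFW had 311 and 302 CPM. Both wild-type libraries with CFW lay below all 6 others, and the range of mub1 without CFW overlapped those of mub1 with CFW and of wild type without CFW.

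The replicates of IMD2 were as far apart as those of almost any gene in 2 of the groups. In wild-type cells with CFW they differed by 0.90 on the log2 scale, more than in 99.5% of 5236 genes with a mean of at least 10 CPM, whose median gap was 0.15. In mub1 cells without CFW they differed by 0.60, more than in 99.5% of genes, against a median of 0.09. The gap was 0.23 in mub1 cells with CFW and 0.04 in wild-type cells without CFW.

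IMD3, the annotated gene closest to IMD2 in sequence, kept within a narrower range. It had 424 and 396 CPM in mub1 cells with CFW and 284 and 303 CPM in mub1 cells without CFW. It had 408 and 342 CPM in wild-type cells with CFW and 347 and 352 CPM in wild-type cells without CFW. The lowest libraries were the 2 of mub1 without CFW, and the range of wild type with CFW overlapped those of the remaining groups.

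IMD4, the copy with an intron, had the lowest level per kilobase of the 4 in 6 of the 8 libraries. It had 273 and 279 CPM in mub1 cells with CFW and 151 and 202 CPM in mub1 cells without CFW. It had 262 and 164 CPM in wild-type cells with CFW and 232 and 258 CPM in wild-type cells without CFW. The replicates were close in mub1 with CFW, whereas those of wild type with CFW differed by 0.68 on the log2 scale, more than in 98.2% of genes, and spanned nearly the whole range.

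GUA1 had the highest level per kilobase of the 4 in 7 of the 8 libraries. It had 499 and 458 CPM in mub1 cells with CFW and 408 and 410 CPM in mub1 cells without CFW. It had 618 and 432 CPM in wild-type cells with CFW and 558 and 608 CPM in wild-type cells without CFW. Without CFW the genotypes did not overlap, and with CFW the mub1 values lay inside the wild-type range.

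**Figure D1:**
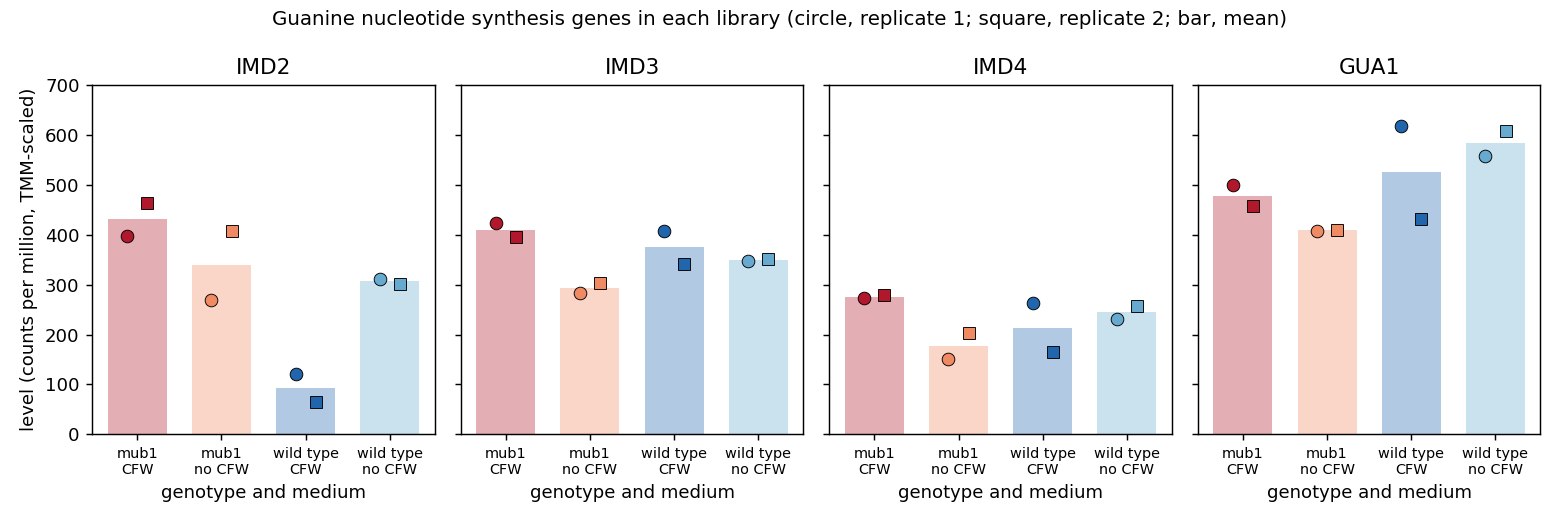
Level of each member in every library, in CPM on a linear axis that starts at 0. Circles are replicate 1 and squares replicate 2, the bar is the mean of the 2 libraries of a group, and groups run from mub1 with CFW at the left to wild type without CFW at the right. IMD2 is at 64.3 and 120 CPM in wild type with CFW and at 269 to 464 CPM in the other groups, while the other members show no such gap.

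Divided by coding length, the order of the levels was GUA1, IMD3, IMD2 and IMD4 from high to low in 4 libraries: both of wild type without CFW and replicate 1 of mub1 with and without CFW. In both wild-type libraries with CFW, IMD2 stood last, behind IMD4. In replicate 2 of mub1 without CFW, IMD2 stood ahead of IMD3, and in replicate 2 of mub1 with CFW it stood ahead of GUA1 as well.

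On this scale of CPM per kilobase, GUA1 averaged 303 ± 18.6 in mub1 with CFW, 259 ± 0.669 in mub1 without CFW, 333 ± 83.4 in wild type with CFW and 370 ± 22.4 in wild type without CFW (SD, n = 2 in each). IMD3 averaged 261 ± 12.7, 187 ± 8.79, 239 ± 29.5 and 222 ± 2.10 CPM per kilobase in the same groups. IMD2 averaged 274 ± 30.5, 215 ± 62.4, 58.7 ± 25.1 and 195 ± 3.82, and IMD4 175 ± 3.03, 112 ± 22.8, 135 ± 44.0 and 156 ± 11.5. In both wild-type groups no member overlapped its neighbour in the order. In mub1 with CFW, IMD2 overlapped both GUA1 and IMD3, and in mub1 without CFW it again overlapped both, so that its place there could not be set. The ratio of the highest to the lowest member was 1.67 and 1.83 in mub1 with CFW and 5.12 and 6.69 in wild type with CFW.

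The 3 IMP dehydrogenase genes together had 1093 and 1139 CPM in mub1 cells with CFW and 704 and 913 CPM in mub1 cells without CFW. Wild-type cells had 790 and 571 CPM with CFW and 889 and 911 CPM without CFW. Both mub1 libraries with CFW were above the other 6, and the range of mub1 without CFW overlapped those of both wild-type groups. IMD2 supplied 36.3% and 40.8% of this sum in mub1 with CFW and 38.2% and 44.7% in mub1 without CFW. It supplied 15.2% and 11.3% in wild type with CFW and 34.9% and 33.1% in wild type without CFW. IMD3 and IMD4 without IMD2 came to 696 and 675 CPM in mub1 with CFW, 435 and 505 CPM in mub1 without CFW, 670 and 507 CPM in wild type with CFW and 579 and 609 CPM in wild type without CFW. The low wild-type sum with CFW is thus seen in IMD2 in both replicates, and in IMD4 in replicate 2. IMD3 in that replicate had 342 CPM, close to the 347 and 352 CPM of wild type without CFW.

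The ratio of the IMD sum to GUA1 placed the genotypes apart in both media. It was 2.19 and 2.49 in mub1 with CFW and 1.73 and 2.23 in mub1 without CFW, against 1.28 and 1.32 in wild type with CFW and 1.59 and 1.498 in wild type without CFW. All 4 mub1 values lay above all 4 wild-type values. Without CFW the IMD sums of the genotypes overlapped, while GUA1 had 408 and 410 CPM in mub1 and 558 and 608 CPM in wild type. With CFW the wild-type ratio holds the low IMD2 values by which IMD2 was first noticed. This ratio was examined after the values had been seen and carries no test.

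**Figure D2:**
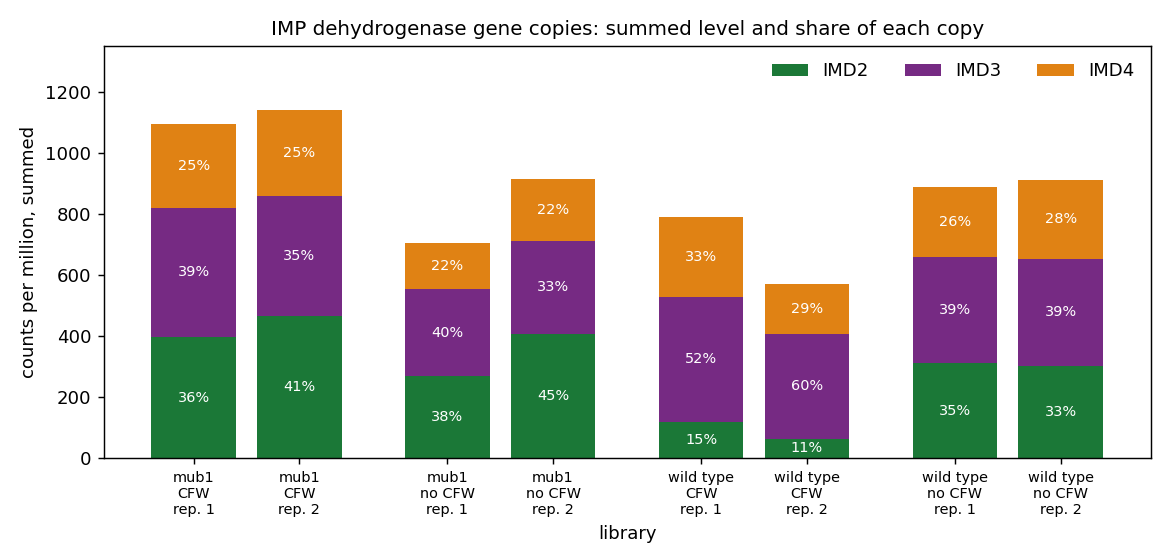
Summed level of the 3 IMP dehydrogenase genes in each library, in CPM on an axis from 0, divided into the parts from IMD2, IMD3 and IMD4. Libraries are ordered by group from mub1 with CFW to wild type without CFW, and the IMD2 part is 15.2% and 11.3% of the bar in wild type with CFW and 33.1% to 44.7% elsewhere.

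With CFW, mub1 cells had far more IMD2 mRNA than wild-type cells, and the other members did not pass the test. IMD2 averaged 431 ± 47.9 CPM in mub1 and 92.3 ± 39.5 CPM in wild type (SD, n = 2 in each), a log2 difference of 2.22 ± 0.31 (SE) or 4.67-fold, and both mub1 libraries lay above both wild-type ones (edgeR quasi-likelihood test, Benjamini-Hochberg adjusted p = 0.00142). The 95% interval ran from 1.51 to 2.94. This test uses the wild-type libraries with CFW in which IMD2 had already been seen to be low, so it is not independent of the choice of IMD2. Its p and interval therefore describe the gap and are not evidence apart from that choice. Leaving out 1 library at a time gave 1.84 to 2.73, a range with the same limit.

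In the same comparison the log2 difference was 0.13 ± 0.10 for IMD3 (edgeR adjusted p = 0.335), 0.37 ± 0.20 for IMD4 (edgeR adjusted p = 0.183) and -0.13 ± 0.15 for GUA1 (edgeR adjusted p = 0.511). So 1 of the 4 members, IMD2, was called higher and 0 lower, where 18.6% of all tested genes were higher and 17.3% lower. That call rests on the wild-type libraries in which IMD2 had been seen to be low, so it is not evidence apart from that choice. A count of 1 among 4 genes is too small to be set against these shares.

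Without CFW, GUA1 passed the test between the genotypes and IMD2 did not, though the interval of IMD2 includes the difference of GUA1. GUA1 averaged 409 ± 1.06 CPM in mub1 and 583 ± 35.3 CPM in wild type, a log2 difference of -0.51 ± 0.15 or 0.701-fold (edgeR adjusted p = 0.0208). That call was lost when any of the 4 libraries compared was left out, with an edgeR adjusted p of up to 0.126. IMD2 differed by 0.14 ± 0.29 (edgeR adjusted p = 0.717), with a 95% interval of -0.54 to 0.83, and without replicate 2 of mub1 the difference was -0.19.

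IMD3 differed by -0.25 ± 0.10 (edgeR adjusted p = 0.0609) and IMD4 by -0.47 ± 0.20 (edgeR adjusted p = 0.0890), both just short of the threshold of 0.05. Both passed it in DESeq2, with an adjusted p of 0.0440 for IMD3 and 0.0385 for IMD4. The main test thus called 0 of the 4 members higher and 1 lower, where 22.1% of tested genes were higher and 20.8% lower. The wild-type libraries without CFW are also those against which IMD2 was first seen to be low.

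In mub1 cells, CFW went with higher levels of IMD3 and IMD4, the other copies of IMP dehydrogenase. IMD3 averaged 410 ± 20.0 CPM with CFW and 293 ± 13.8 CPM without, a log2 change of 0.48 ± 0.10 or 1.40-fold (edgeR adjusted p = 0.00724). IMD4 averaged 276 ± 4.77 CPM with CFW and 177 ± 36.0 CPM without, a log2 change of 0.64 ± 0.20 or 1.56-fold (edgeR adjusted p = 0.0438). For both genes each library with CFW lay above each library without it.

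The call of IMD3 was lost without replicate 1 of either mub1 group, with an edgeR adjusted p of at most 0.0721. That of IMD4 was lost in 5 of the 8 fits that left out 1 library, with an edgeR adjusted p of up to 0.244, and also with no filter on low counts, at 0.0556, and with the replicate number as a block, at 0.0664.

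For IMD2 the log2 difference with CFW in mub1 cells was 0.35 ± 0.29 (edgeR adjusted p = 0.411), with a 95% interval of -0.34 to 1.03. For GUA1 it was 0.23 ± 0.15 (edgeR adjusted p = 0.281). In all, 2 of the 4 members were called higher and 0 lower, where 13.8% of tested genes were higher and 14% lower. This comparison shares no library with that in which IMD2 was first noticed. Its scaling and estimate of spread still come from the fit of all 8 libraries, and the IMD4 call was lost without either wild-type library without CFW.

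In wild-type cells, given as a description, IMD2 averaged 92.3 ± 39.5 CPM with CFW and 306 ± 6.003 CPM without, a log2 difference of -1.73 ± 0.30 or 0.301-fold. The difference was 0.10 ± 0.10 for IMD3, -0.20 ± 0.20 for IMD4 and -0.15 ± 0.15 for GUA1. For these 3 genes the sign rested on 1 library: without replicate 1 of wild type with CFW it was -0.02 for IMD3, and without replicate 2 it was 0.10 for IMD4 and 0.08 for GUA1. For IMD2, leaving out 1 library at a time gave -2.25 to -1.35.

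The change with CFW in mub1 minus that in wild type was 2.08 ± 0.42 on the log2 scale for IMD2, 0.38 ± 0.14 for IMD3, 0.84 ± 0.29 for IMD4 and 0.38 ± 0.21 for GUA1, again as a description. All 4 values are positive. The 5 comparisons share libraries and are not independent of one another.

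**Figure D3:**
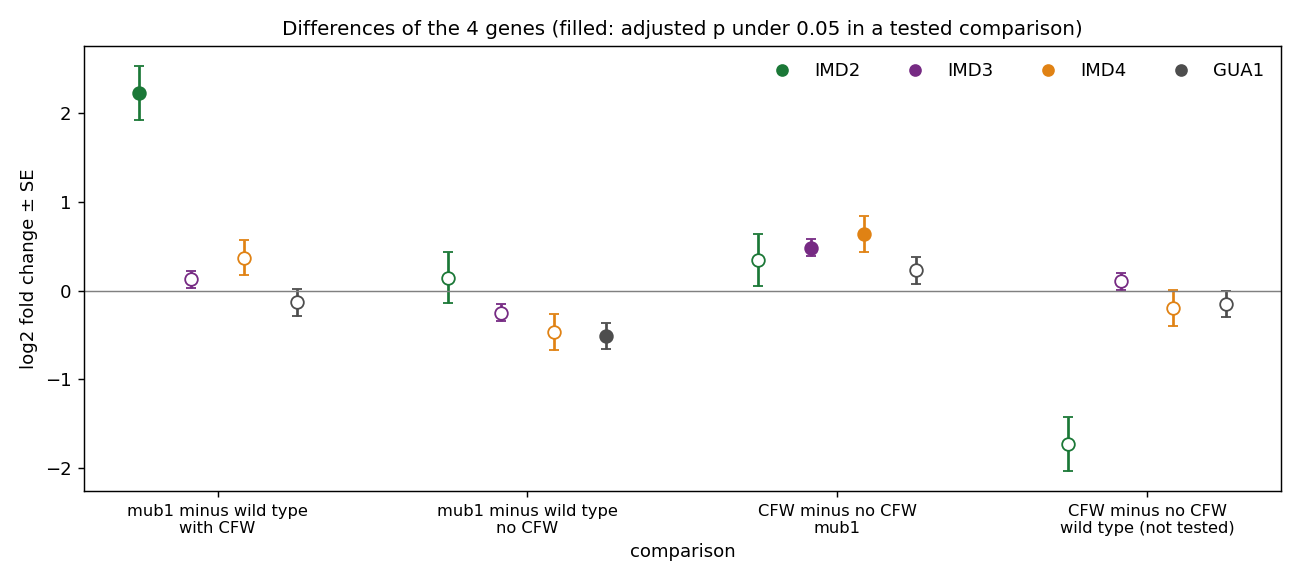
Log2 fold change of each member in the 4 comparisons of a pair of groups, with error bars of 1 standard error. Positive values mean higher in mub1 or with CFW, and filled points passed the test in a tested comparison. The filled point of IMD2 rests on the wild-type libraries with CFW in which IMD2 had already been seen to be low. IMD2 stands at 2.22 for mub1 against wild type with CFW and at -1.73 for CFW in wild type, and all other values lie between -0.51 and 0.64.

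Across the 8 libraries, IMD3 and IMD4 moved together more than either did with IMD2. Pearson's r of log2 CPM was 0.827 between IMD3 and IMD4, -0.006 between IMD2 and IMD3 and 0.428 between IMD2 and IMD4. With GUA1 it was -0.079 for IMD2, 0.575 for IMD3 and 0.669 for IMD4. These are descriptions over 8 libraries in 4 groups, which share their scaling and are not 8 independent conditions.

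Among 5232 other genes with a mean of at least 10 CPM, the pattern most like that of IMD2 was that of SWM1, a subunit of the anaphase-promoting complex, with r = 0.982. SWM1 had 36.5 and 36.0 CPM in mub1 with CFW, 32.03 and 35.3 in mub1 without CFW, 28.8 and 23.5 in wild type with CFW and 34.8 and 32.9 in wild type without CFW. Its order of libraries was thus near that of IMD2, over a much smaller range. RPT2, a proteasome ATPase, followed with r = 0.978, and CCT8, a subunit of the cytosolic chaperonin, with r = 0.960.

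For IMD3 the nearest were EMP70, an endosomal membrane protein gene (r = 0.984), IKI3, a subunit of Elongator (r = 0.983), and RPS30A, a ribosomal protein gene (r = 0.983). For IMD4 they were TRP2, an enzyme of tryptophan synthesis (r = 0.985), OLA1 (r = 0.973) and RGR1, a subunit of Mediator (r = 0.964). For GUA1 they were DBP2, an RNA helicase gene (r = 0.987), CDC43, a subunit of a prenyltransferase (r = 0.984), and BIM1, a microtubule-binding protein gene (r = 0.983). Each r is the highest of 5232, so that high values are what such a choice gives, and no p is attached.

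Upstream of IMP, most genes of the de novo pathway were lower in mub1 without CFW. Of its 14 genes, 0 were higher and 9 lower, where 22.1% of all tested genes were higher and 20.8% lower. The median log2 difference was -0.40, against -0.01 over all tested genes. With CFW, 2 were higher and 7 lower, where 18.6% of all tested genes were higher and 17.3% lower. The median there was -0.38 against -0.01. ADE2, which makes the carboxylated aminoimidazole ribotide, had 47.4 and 45.6 CPM in mub1 with CFW, 54.7 and 52.0 in mub1 without CFW, 176 and 173 in wild type with CFW and 171 and 167 in wild type without CFW. ADE2 is also a common marker gene of laboratory strains. HIS3, another such marker, had 39.5 and 39.3 CPM in mub1 with CFW and 24.5 and 26.5 in mub1 without CFW. It had 68.8 and 61.55 CPM in wild type with CFW and 75.9 and 80.5 in wild type without CFW. The part of the strain markers or strain background in the level of ADE2 was not tested. Nor was it tested for the genotype differences of the other genes of this list.

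Without CFW, ADE2 differed by -1.66 ± 0.07 between mub1 and wild type, ADE5,7, for an enzyme of both an early and a middle step, by -0.96 ± 0.12, and ADE1, for the step after Ade2, by -0.89 ± 0.12. With CFW, ADE2 differed by -1.91 ± 0.07, ADE8, for a formyl transfer step, by -0.63 ± 0.08, and ADE13, the lyase of both the IMP and the AMP branch, by -0.84 ± 0.12. These calls held when any 1 library was left out.

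With CFW in mub1 cells, 5 of the 14 genes were higher and 1 lower, where 13.8% of all tested genes were higher and 14% lower. The median was 0.14 against 0.00. The higher ones included PRS5 at 0.42 ± 0.09 and PRS3 at 0.38 ± 0.08, both for the synthetase of the pathway's ribose donor, while ADE16, for the last steps to IMP, was lower at -0.38 ± 0.09. Among all calls in wild type 54.3% were higher, or 69% with scaling by library totals and 73.9% with only the groups compared. The median of the 14 genes in wild type was -0.06. Of these, 1 was higher and 0 lower, where 10.3% of all tested genes were higher and 8.7% lower. That 1 was ADE4, the committed step, which had 44.3 and 34.2 CPM with CFW and 24.2 and 23.1 without. Each of these 4 calls was lost without 1 library or another: PRS3 and PRS5 without replicate 1 of either mub1 group, ADE16 without any mub1 library except replicate 2 with CFW, and ADE4 without replicate 2 of wild type without CFW.

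Downstream of GMP, GUK1, the guanylate kinase that makes GDP, was lower in mub1, at -0.48 ± 0.11 on the log2 scale without CFW and -0.31 ± 0.11 with it. The first call was lost without replicate 2 of wild type without CFW and the second without any of 7 libraries. YNK1, the kinase from GDP to GTP, was lower with CFW in mub1 cells, at -0.38 ± 0.10, a call lost without any of the 4 mub1 libraries. These are the 2 tested genes of that list, and neither passed in wild type.

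In the other branch from IMP, to AMP, 2 of 3 genes were lower in mub1 in each medium and 0 higher. Of all tested genes, 20.8% were lower without CFW and 17.3% with it, and 22.1% and 18.6% were higher. A list of 3 genes is too small to be set against these shares. ADE12, the adenylosuccinate synthase that competes for IMP, differed by -0.42 ± 0.07 without CFW and -0.44 ± 0.07 with it. ADK1, the adenylate kinase, differed by -0.36 ± 0.10 and -0.28 ± 0.10, and lost its call without 3 libraries without CFW and without 7 with CFW. With CFW in mub1 cells, where 14% of all tested genes were lower, 1 was lower: AMD1, which returns AMP to IMP, at -0.32 ± 0.07. That call was lost without 3 of the 8 libraries, and in wild type none of the 3 passed.

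**Figure D4:**
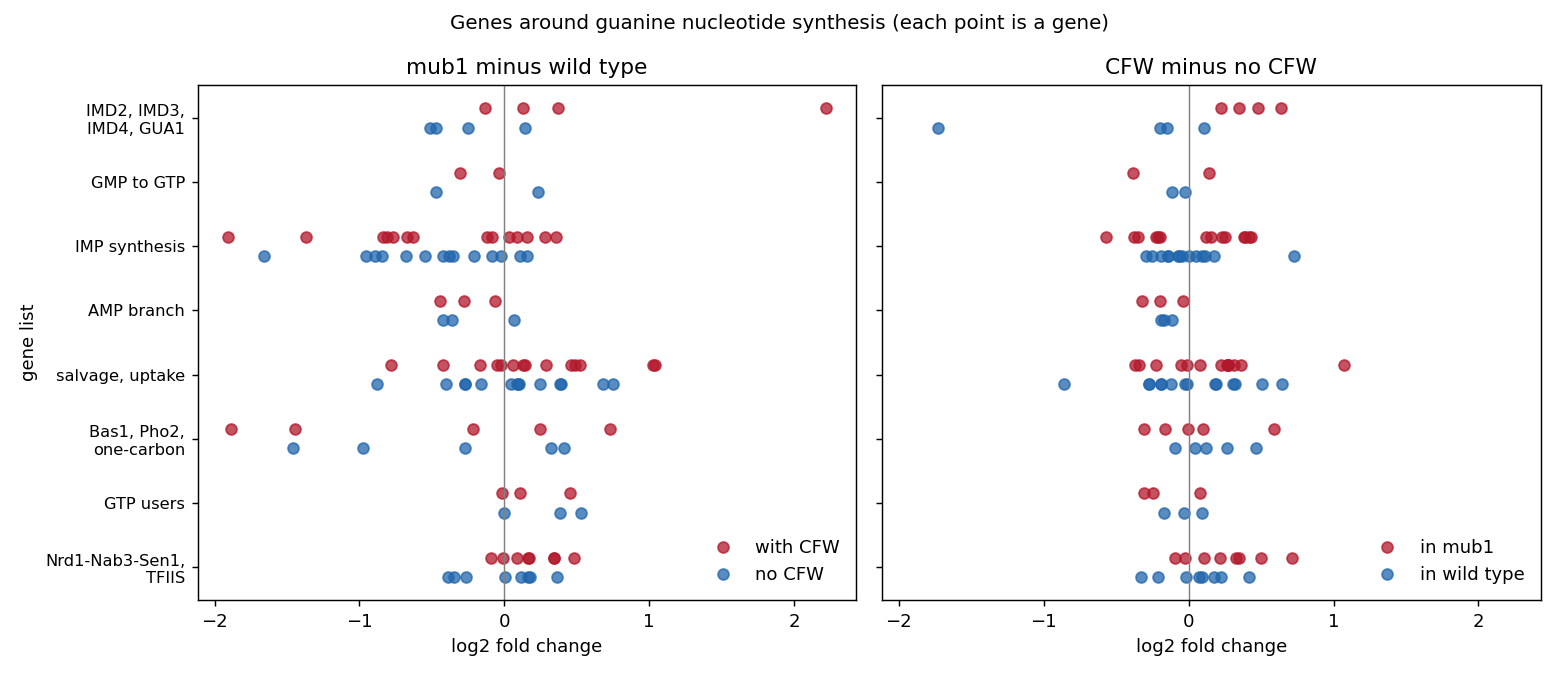
Log2 fold change of the 4 members and of each tested gene of the 7 lists, 1 point a gene, for mub1 minus wild type (left, with and without CFW) and CFW minus no CFW (right, in mub1 and in wild type), with 0 as no difference. Most points of the IMP synthesis list lie below 0 for mub1 against wild type, with ADE2 lowest at -1.66 without CFW and -1.91 with it.

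Salvage, interconversion and uptake genes held calls in both directions, as the tested genes at large did. In mub1 against wild type, 4 of 14 were higher and 4 lower without CFW, with a median of 0.09, where 22.1% of all tested genes were higher and 20.8% lower. With CFW 5 were higher and 2 lower, with a median of 0.14, where 18.6% were higher and 17.3% lower. FCY2, the purine and cytosine permease, was higher by 0.75 ± 0.14 and 1.04 ± 0.14, and ADO1, the adenosine kinase, differed by -0.88 ± 0.11 and -0.78 ± 0.11. APT2, a relative of adenine phosphoribosyltransferase, was higher by 0.68 ± 0.10 without CFW, and ISN1, the IMP nucleotidase, was lower at -0.43 ± 0.08 with it.

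With CFW, 3 of the 14 were higher and 2 lower in mub1 cells, with a median of 0.24, and 2 were higher and 1 lower in wild type, with a median of -0.02. Of all tested genes, 13.8% were higher and 14% lower in mub1 cells, and 10.3% and 8.7% in wild type. PHM8, a nucleotidase, was higher in both, by 1.07 ± 0.17 in mub1 and 0.65 ± 0.17 in wild type. The second call was lost without any of the 4 wild-type libraries, and the first when only the mub1 groups entered the fit. AAH1, the adenine deaminase, had 82.6 and 50.5 CPM in wild type with CFW and 105 and 136 without, a log2 change of -0.86 ± 0.20 (edgeR adjusted p = 0.0217) that lost its call without replicate 2 of wild type without CFW, where it was -0.66, and with only the 2 groups compared in the fit. AAH1 had 141 and 129 CPM in mub1 with CFW and 125 and 131 in mub1 without CFW, so that, as for IMD2, the 2 wild-type libraries with CFW were the lowest of the 8 and replicate 2 the lower of them.

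The difference in CFW response between the genotypes passed for 1 of the 49 tested list genes and for 0.89% of all tested genes in the higher and 1.61% in the lower direction. That gene was MEU1, which recovers adenine from methylthioadenosine, at 0.55 ± 0.12 (edgeR adjusted p = 0.0479). AAH1 stood at 0.94 ± 0.28 and did not pass (edgeR adjusted p = 0.103).

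In mub1 the gene of the regulator was higher and genes of one-carbon supply were lower. Here too the part of the strain markers or strain background was not tested. BAS1, the Myb factor that with Pho2 activates purine genes, had 45.2 and 44.0 CPM in mub1 with CFW, 27.4 and 31.95 in mub1 without CFW, 26.2 and 27.5 in wild type with CFW and 22.7 and 22.0 in wild type without CFW. Its differences were 0.41 ± 0.10 without CFW, 0.73 ± 0.10 with CFW and 0.59 ± 0.10 for CFW in mub1, and the first call was lost without replicate 2 of either group compared. SHM2, the cytosolic serine hydroxymethyltransferase that feeds one-carbon units to the pathway, had 106 and 88.4 CPM in mub1 with CFW, 139 and 102 in mub1 without CFW, 403 and 315 in wild type with CFW and 337 and 325 in wild type without CFW.

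SHM2 thus differed by -1.46 ± 0.16 without CFW and -1.89 ± 0.16 with it, with no overlap between the genotypes. MTD1, a folate dehydrogenase of the same supply, differed by -0.97 ± 0.17 and -1.44 ± 0.17. Of the 5 genes of this list, 2 were higher and 3 lower in mub1 without CFW, and 2 were higher and 2 lower with it. Of all tested genes, 22.1% were higher and 20.8% lower without CFW, and 18.6% and 17.3% with it. For CFW, 1 was higher in mub1 cells, BAS1, where 13.8% of all tested genes were higher, and none passed in wild type.

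Among 3 enzymes that use GTP outside RNA synthesis, RIB1, of riboflavin synthesis, was higher in mub1 by 0.53 ± 0.07 without CFW and 0.45 ± 0.07 with it. PSA1, which makes the GDP-mannose of the cell wall mannans, was higher without CFW by 0.39 ± 0.12, a call lost without any of the 4 libraries compared. With CFW in mub1 cells RIB1 was lower, at -0.25 ± 0.07, a call lost without 6 of the 8 libraries, and FOL2, of folate synthesis, passed in no comparison.

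Of 8 genes of Nrd1-Nab3-Sen1 termination and TFIIS, which are known to act on IMD2 transcription, 1 was higher and 2 lower in mub1 without CFW and 2 were higher and 0 lower with it. Over all tested genes 22.1% were higher and 20.8% lower without CFW and 18.6% and 17.3% with it, so these counts are near the background. SEN1, the helicase, had 114 and 107 CPM in mub1 with CFW, 64.1 and 70.6 in mub1 without CFW, 115 and 121 in wild type with CFW and 88.3 and 88.0 in wild type without CFW. It was higher with CFW in both genotypes, by 0.71 ± 0.08 in mub1 and 0.42 ± 0.08 in wild type, and the second call was lost without either wild-type library without CFW. The difference between those responses was 0.29 ± 0.11 and did not pass (edgeR adjusted p = 0.137).

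NAB3, for an RNA-binding subunit of the complex, was higher in mub1 by 0.36 ± 0.08 without CFW, a call lost without replicate 2 of wild type, and by 0.48 ± 0.08 with CFW. RRP6, the nuclear exosome ribonuclease, was higher with CFW in mub1 cells by 0.50 ± 0.09. The 2 genes lower in mub1 without CFW were SEN1, at -0.39 ± 0.08, and RRP6, at -0.35 ± 0.09, whose call was lost without replicate 2 of wild type or replicate 1 of mub1. The other 5 genes, NRD1, PCF11, SSU72, PAP2 and DST1, gave 1 call between them, SSU72 in mub1 against wild type with CFW at 0.35 ± 0.12, and it was lost without any of 7 libraries. DST1, the gene of TFIIS, passed in none.

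The nearest annotated genes on each side of the members gave calls of their own. On either side of IMD2, PHO12, an acid phosphatase gene 893 bases away, was lower in mub1, at -2.69 ± 0.28 on the log2 scale without CFW and -2.79 ± 0.27 with it. YHR218W, 2046 bases away on the side of the chromosome end, was higher, at 1.95 ± 0.35 and 2.50 ± 0.36. For CFW in wild type, where IMD2 was low, PHO12 stood at 0.24 ± 0.24 and YHR218W at -0.31 ± 0.43, and neither passed. Both belong to families of near-identical copies, and their counts are uncertain for that reason.

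Beside IMD3, CNA1, a calcineurin catalytic subunit gene 218 bases away, differed in mub1 by -1.10 ± 0.09 without CFW and -0.79 ± 0.08 with it. With CFW in mub1 cells, the comparison in which IMD3 was called higher, CNA1 was also higher, by 0.32 ± 0.09, a call lost without 3 of the 8 libraries. ATG23, on the other side, was higher with CFW in wild type by 0.51 ± 0.11, a call lost without either wild-type library without CFW. Beside IMD4, CMP2, the other calcineurin catalytic subunit gene, differed in mub1 by -0.31 ± 0.10 with CFW, a call lost without 5 of the 8 libraries. SPC2, of the signal peptidase complex, differed in mub1 by -0.44 ± 0.09 with CFW and by -0.27 ± 0.09 without it, the second a call lost without 3 libraries. SPC2 was higher with CFW in wild type by 0.38 ± 0.09, lost without either wild-type library without CFW. Beside GUA1, SKY1, a protein kinase gene, and TRS130, of a vesicle tether, passed in none of the 5 comparisons.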

How the data were processed

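The authors deposited 1 table of whole-number read counts per gene for 8 libraries, not scaled. Per the labels' protocols, RNA was taken with hot phenol, treated with DNase and made into stranded libraries of polyadenylated RNA, read in pairs of 150 bases. Per the submitters' processing notes, reads were checked with FastQC 0.12.1, aligned with HISAT2 2.2.1 to build R64 and counted with featureCounts 2.0.3. The strand setting and the treatment of reads with several alignments are not given in the sources used here.

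Samples were grouped by genotype and medium from the labels. The tests used edgeR 4.0.16 under R 4.3.3, with filterByExpr, TMM scaling and 1 robust quasi-likelihood fit of all 8 libraries with a mean per group, which leaves 4 residual degrees of freedom. Benjamini-Hochberg adjustment ran over the 5954 genes tested in each comparison, with calls at 0.05. An SE is the size of the log2 difference over the root of its F. The comparisons were mub1 against wild type in each medium, CFW against none in each genotype, and the difference between the last 2. The steps were tested on simulated counts. Alternatives were other scalings, filters and fits, DESeq2 1.42.0, a replicate block, and leaving out each library.

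The members, the 7 lists (50 genes, 49 of them tested) and the tests were chosen with earlier results of these data known. Of each list, up to 3 genes past the threshold with the smallest p were named in each comparison, with the 3 genes most like each member and the nearest gene on each side. Other list genes named, SEN1 and RRP6 in further comparisons and AAH1, NRD1, PCF11, PAP2 and DST1 among them, were added after their values were seen. Symbols, coordinates and sequences came from RefSeq's annotation and genome of build R64, where all 4 members were found. Motifs and exact matches were searched with Python 3.11.15.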

Additional observations from a re-analysis of the deposited data

Results flagged for a closer look

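MEU1, which recovers adenine from methylthioadenosine, was the only 1 of the 49 tested list genes to pass the test of a difference in CFW response between the genotypes. Of all tested genes, 0.89% passed in the higher and 1.61% in the lower direction, so 1 call is near the background. The log2 change with CFW was 0.36 ± 0.09 in mub1, where MEU1 had 123 and 108 CPM with CFW and 89.9 and 89.6 without. It was -0.19 ± 0.09 in wild type, where MEU1 had 110 and 98.2 CPM with CFW and 117 and 121 without. The difference was 0.552 ± 0.12 (edgeR quasi-likelihood test, adjusted p = 0.0479). It was past the threshold by little: leaving out any of 6 of the 8 libraries ended the call, with an edgeR adjusted p of up to 0.204.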

How the results depend on the processing

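Leaving out 1 library at a time gave log2 ranges, in the order IMD2, IMD3, IMD4 and GUA1. For mub1 against wild type without CFW they were -0.19 to 0.41, -0.30 to -0.21, -0.69 to -0.28 and -0.57 to -0.45. With CFW they were 1.84 to 2.73, 0.007 to 0.25, 0.073 to 0.74 and -0.37 to 0.14. For CFW in mub1 they were 0.08 to 0.67, 0.43 to 0.53, 0.45 to 0.86 and 0.16 to 0.29. For CFW in wild type they were -2.25 to -1.35, -0.023 to 0.22, -0.57 to 0.10 and -0.43 to 0.084, and for the genotype difference in CFW response 1.70 to 2.59, 0.26 to 0.50, 0.54 to 1.21 and 0.14 to 0.65. The sign turned for IMD2 without CFW (-0.19, without replicate 2 of mub1 without CFW) and for GUA1 with CFW (0.14, without replicate 1 of wild type with CFW). In wild type it turned for IMD3 (-0.023), IMD4 (0.10) and GUA1 (0.084) without 1 of the wild-type libraries with CFW. The numbers of genes called ranged over 1440 to 3223, 1274 to 2502, 531 to 2541, 269 to 1788 and 9 to 1779 in the 5 comparisons, against 2554, 2138, 1652, 1134 and 149 with all libraries.

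Of other settings, IMD3 without CFW passed under upper quartile scaling (-0.29, adjusted p = 0.0446), with only the groups compared (-0.25, 0.00461) and in DESeq2 (-0.24, 0.0440), and IMD4 passed in DESeq2 (-0.46, 0.0385). GUA1 for CFW in mub1 passed with only the groups compared (0.23, 0.0164). IMD4 for CFW in mub1 failed with no low-count filter (0.64, 0.0556) and with the replicate block (0.64, 0.0664). With only the groups compared, 1419 genes were called for mub1 against wild type with CFW and 348 for CFW in wild type. The genotype difference in response gave 92 with the replicate block and 566 in DESeq2. The cause of these shifts was not tested, beyond the smaller number of samples in some fits. Scaling by library totals moved the share of calls that were higher for CFW in wild type to 69% from 54.3%. With only the groups compared that share was 73.9%, and leaving out either wild-type library without CFW also moved it. The same share for the genotype difference in response moved when some single libraries were left out. The block is a fit on a shared number alone: the labels tie no replicates together, and the correlations of same-numbered deviations ran from -0.161 to 0.168. Adding IMD1 to the sum was not run, and exon and coding lengths were the same.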
